A study of Mus musculus with 24 samples.

Results

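The genes described here are 9 genes that mark microglia, the resident macrophages of the brain: Aif1, Csf1r, Cx3cr1, Gpr34, P2ry12, Siglech, Tmem119, Olfml3 and Sall1. They were chosen by name, and every array probe whose transcript accession maps to one of them was taken, which gave 13 probes among 56605 on the array and 9 genes among the 16935 tested. Csf1r, Cx3cr1, Gpr34 and Siglech each had 2 probes, and the other 5 genes had 1 each. All 13 probes passed the filter on dim probes, and 11 of them were well above background on all 24 arrays. The dimmer Gpr34 probe reached that on 20 arrays and the dimmer Siglech probe on 15.

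The 24 arrays carried cerebellum RNA of C57BL/6 mice at postnatal day 28 that lacked Derlin-1 or Derlin-2, membrane proteins that help to dispose of misfolded proteins from the endoplasmic reticulum, in cells reached by a Nestin-Cre transgene. Controls were Derlin-1 flox/flox or Derlin-2 flox/flox mice without the transgene, and KO mice were flox/flox with it, so the groups differ in Cre as well as in the deletion. The Nestin promoter is active in precursors of neurons and of astrocytes and oligodendrocytes, whereas microglia arise from yolk sac precursors. Mice received the chemical chaperone 4-phenylbutyrate (4PBA) at 200 mg/kg, or water as vehicle, by a daily intraperitoneal injection from postnatal day 14 to 28. Numbered samples of both lines (1 and 2) received vehicle or 4PBA. A second set of Derlin-1 samples carries letters (a and b), and those not labelled 4PBA name no vehicle and are called untreated. This gave 12 groups of 2 arrays, with the numbered Derlin-1, the numbered Derlin-2 and the lettered Derlin-1 samples each on a slide of its own with 8 arrays. The labels do not say which samples came from separate litters or days, so p-values measure the spread between these arrays.

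Microglia depend for survival on the receptor tyrosine kinase Csf1r, whose ligands are Csf1 and Il34, and in the healthy brain they hold a resting, surveying state that needs transforming growth factor beta and the transcription factor Sall1. P2ry12, Tmem119, Siglech, Gpr34, Olfml3 and Cx3cr1 are used as marks of that homeostatic state, while Aif1, which encodes the actin-binding protein Iba1, marks microglia in the resting and in the activated state. In activated microglia around damaged neurons the homeostatic genes are typically lowered and genes such as Cst7, Itgax and Trem2 are raised, so the set bears on whether whole-tissue RNA changed as microglia as a whole or as their state. In RNA of whole cerebellum, a change in the number of cells and a change in RNA per cell cannot be told apart.

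Levels below are log2 of the scanner's processed signal minus the 75th percentile of that signal on the array, so 0 is the brightness that 75% of spots do not exceed. They compare arrays for 1 probe and do not compare probes. Between 57.7% and 68.4% of spots were well above background on each array. The arrays were first checked against their labels. On the dimmer probe for Derl2, the gene deleted in the Derlin-2 line, 3 Derlin-2 KO arrays lay between -2.40 and -1.97, while the 4 Derlin-2 controls lay between -0.57 and -0.41 and vehicle KO array 1 of that line stood at -0.40. The brighter Derl2 probe set the same array apart, at 1.72 against 0.18 to 0.48 on the other Derlin-2 KO arrays and 1.40 to 1.58 on the Derlin-2 controls. The 1 probe for Derl1 overlapped between Derlin-1 KO arrays (0.14 to 0.94) and Derlin-1 controls (0.76 to 1.22), and its position relative to the deleted part is not given in the sources used here. Derl3, a gene induced by endoplasmic reticulum stress, was at -0.63 to 0.37 on 7 Derlin-1 KO arrays and at -3.14 to -1.69 on the 8 Derlin-1 controls, but at -2.27 on lettered KO array b with 4PBA. In the Derlin-2 line, vehicle KO array 1 had Derl3 at -1.85, with the other KO arrays (-1.96 to -0.61) and above the controls (-3.03 to -2.75), so that Derl3 went with its KO label where both Derl2 probes went against it. Both arrays at odds with their labels on these genes are named where leaving them out turned a direction or a call. For the Derlin-1 array this rests on Derl3, which is not the deleted gene. Its Derl1 level of 0.93 lay where KO arrays and controls overlapped. The other Derlin-1 KO arrays with 4PBA had Derl3 at -0.63, -0.3 and 0.17. Neither a wrong label nor a differing response to 4PBA was tested.

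Promoter sequences are shown for Aif1 and P2ry12, since these are the general marker that changed most among the 9 genes and one of the 4 genes that missed the threshold. RefSeq's promoter table (GRCm38.p6) held 8 windows for 6 of the 9 genes, each of 300 bases, from 250 bases before the start site to 50 after it. The Aif1 window lies at chr17:35176003-35176302 on the minus strand and that of P2ry12 at chr3:59262936-59263235 on the minus strand. GAGGAA, a sequence recognised by PU.1, the lineage factor of macrophages, was searched on both strands as the only motif, and a match is written in capitals (as TTCCTC where it lies on the opposite strand). Shorter or related sequences were not searched.
Aif1: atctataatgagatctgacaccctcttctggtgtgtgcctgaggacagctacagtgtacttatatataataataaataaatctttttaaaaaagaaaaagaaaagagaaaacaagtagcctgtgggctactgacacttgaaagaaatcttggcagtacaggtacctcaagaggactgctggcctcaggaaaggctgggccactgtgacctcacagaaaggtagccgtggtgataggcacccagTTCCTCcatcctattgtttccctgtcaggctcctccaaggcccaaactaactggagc
P2ry12: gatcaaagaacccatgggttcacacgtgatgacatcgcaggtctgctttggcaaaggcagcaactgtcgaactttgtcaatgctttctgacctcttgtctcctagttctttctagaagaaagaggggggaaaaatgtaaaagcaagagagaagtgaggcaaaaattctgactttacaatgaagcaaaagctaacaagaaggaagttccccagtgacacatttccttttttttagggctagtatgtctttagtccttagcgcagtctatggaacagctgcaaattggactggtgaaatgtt
The Aif1 window held 1 match, on the opposite strand, whose first base lies at -7 from the start site, and the P2ry12 window held none of this exact sequence. Over the table, 28.3% of 32851 windows of this length held the motif, and 2 of the 8 windows of these genes did.

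The first comparison asked how the set differed in Derlin-1 KO cerebellum without 4PBA. Aif1, Cx3cr1, Gpr34 and Csf1r were higher in KO arrays, by 2.81-fold, 2.05-fold, 1.78-fold and 1.61-fold, and Olfml3 was 1.53-fold lower. Tmem119, P2ry12, Sall1 and Siglech did not pass the test. Thus 5 of the 9 genes passed limma's test at a Benjamini-Hochberg adjusted p under 0.05, 4 higher and 1 lower, where 10.6% of all genes passed in either direction, 5.26% higher and 5.37% lower. The median change of the 9 genes was 0.48 on the log2 scale and that of all genes -0.01. Each fold change averages the numbered and lettered series with equal weight, with 4 KO and 4 control arrays.

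**Figure D1:**
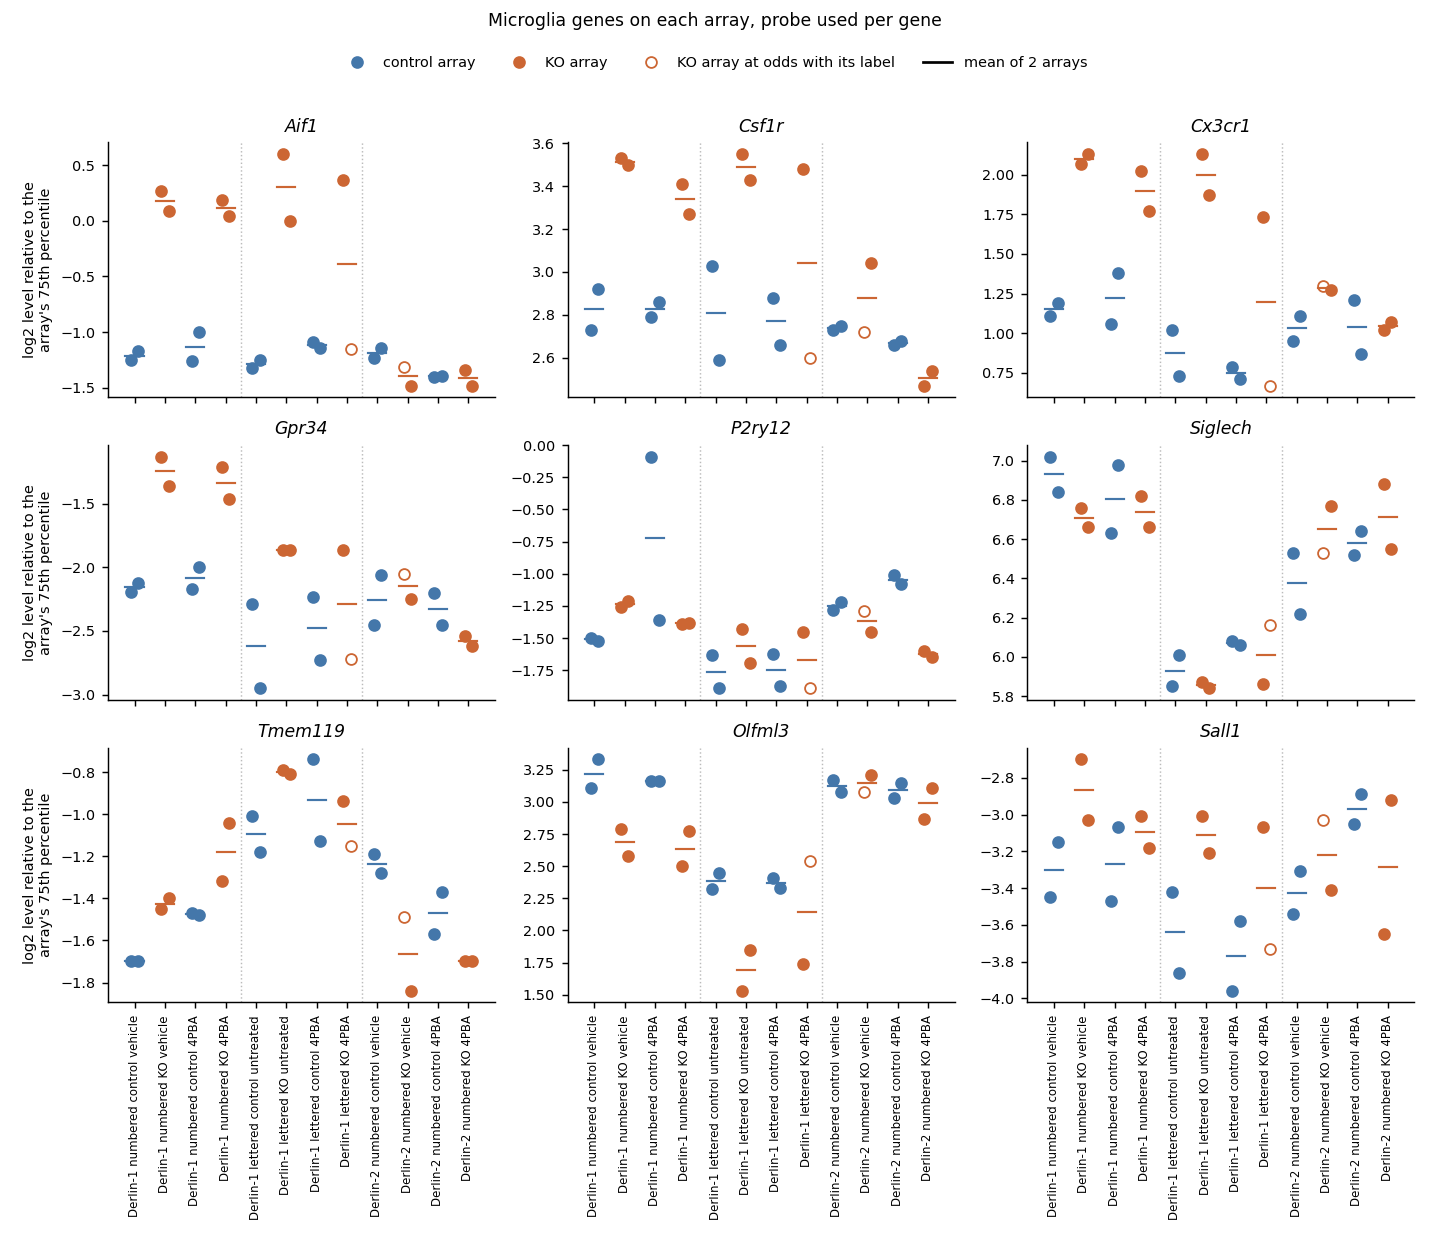
Level of each microglia gene on each of 24 arrays (log2 signal relative to the array's 75th percentile, brightest probe of the gene, y axes differ), by group; bars are means of 2 arrays and open points are the 2 KO arrays at odds with their labels. Derlin-1 KO arrays without 4PBA lie above every Derlin-1 control without 4PBA for Aif1, Csf1r, Cx3cr1 and Gpr34, and the open Derlin-1 point lies near the controls of its slide for these genes.

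Aif1 had levels of -1.25 and -1.17 on the numbered vehicle controls and of -1.32 and -1.25 on the lettered untreated controls. On the numbered vehicle KO arrays it was 0.27 and 0.09, and on the lettered untreated KO arrays 0.60 and 0.00. All 4 KO arrays were above all 4 controls, and the controls lay closer to each other than the KO arrays did. The change was 1.49 ± 0.23 (log2, SE, 4 arrays against 4, limma adjusted p 0.00274), with 1.39 for numbered and 1.59 for lettered arrays.

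Csf1r, the receptor for the survival ligands, had levels on its brighter probe of 2.73 and 2.92 in numbered vehicle controls and of 3.03 and 2.59 in lettered untreated controls. The KO arrays had 3.53 and 3.50 among numbered and 3.55 and 3.43 among lettered samples. The groups did not overlap, and the change was 0.69 ± 0.15 (limma adjusted p 0.0121). The second Csf1r probe did not follow: its levels ranged from -1.60 to -1.23 over the 24 arrays, and its change in the fit of all probes was 0.07 ± 0.07 (95% confidence interval -0.08 to 0.23). The call on Csf1r therefore rests on 1 of 2 probes, and it was lost without the lettered untreated KO array a (limma adjusted p 0.0542).

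Cx3cr1, the receptor for the neuronal chemokine fractalkine, had levels on its brighter probe of 1.11 and 1.19 in numbered vehicle controls and of 1.02 and 0.73 in lettered untreated controls. Numbered vehicle KO arrays had 2.07 and 2.13, and lettered untreated KO arrays 2.13 and 1.87. The lowest KO array was above the highest control, and the change was 1.04 ± 0.17 (limma adjusted p 0.00363). On the dimmer probe the controls had -2.74, -2.45, -2.13 and -2.28 and the KO arrays -1.60, -1.55, -0.77 and -1.25, in the same order of arrays. This probe gave 1.1 ± 0.19 (limma adjusted p 0.00737 over all probes), so the 2 probes differed in size by less than either SE.

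Gpr34, a receptor for lysophosphatidylserine, had levels on its brighter probe of -2.19 and -2.12 in numbered vehicle controls and of -2.29 and -2.95 in lettered untreated controls. The KO arrays had -1.13 and -1.36 among numbered samples and -1.86 on both lettered arrays. No KO array fell among the controls, and the change was 0.84 ± 0.18 (limma adjusted p 0.0129). The dimmer probe also separated the groups, with -5.47, -5.26, -4.67 and -5.13 in controls and -4.07, -4.34, -3.96 and -4.03 in KO arrays. Its change was larger but less certain, 1.03 ± 0.28, and missed the threshold in the fit of all probes (limma adjusted p 0.0518).

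The 1 probe for Olfml3, a secreted protein of the olfactomedin family, went the other way. Its levels over the 24 arrays were most like those of Ms4a19, Adam32 and 4930449E01Rik (r = 0.99 each) and ran against those of Aif1, Csf1r, Cx3cr1 and Gpr34, and what it detects beside Olfml3 was not tested. Its levels were 3.11 and 3.33 in numbered vehicle controls, 2.32 and 2.45 in lettered untreated controls, 2.79 and 2.58 in numbered vehicle KO arrays and 1.53 and 1.85 in lettered untreated KO arrays. The KO arrays were lower within each series, while over both series the ranges overlapped, with lower levels on the lettered slide in both genotypes. The change was -0.61 ± 0.14 (limma adjusted p 0.0154), and it missed the threshold when the lettered untreated KO array a (limma adjusted p 0.0774), the numbered vehicle KO array 2 (0.0657) or the numbered vehicle control 2 (0.0586) was left out.

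P2ry12, the purine receptor that directs microglial processes toward injury, stayed within a narrow range. Its levels were -1.50 and -1.52 in numbered vehicle controls against -1.26 and -1.21 in KO arrays, and -1.63 and -1.89 in lettered untreated controls against -1.43 and -1.69 in KO arrays. The groups were apart in the numbered series and overlapped in the lettered one. The change was 0.24 ± 0.19 (95% confidence interval -0.18 to 0.65, limma adjusted p 0.471), an interval that does not reach the change of Aif1.

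Tmem119, a membrane protein of resident microglia, had levels of -1.70 on both numbered vehicle controls against -1.45 and -1.40 in KO arrays, and of -1.01 and -1.18 in lettered untreated controls against -0.79 and -0.81 in KO arrays. The KO arrays were above the controls in both series, but by little, and the change of 0.29 ± 0.10 (95% confidence interval 0.07 to 0.50) missed the threshold (limma adjusted p 0.0798). Sall1, the transcription factor, showed the same order within each series, with -3.45 and -3.15 in numbered vehicle controls, -2.70 and -3.03 in their KO arrays, -3.42 and -3.86 in lettered untreated controls and -3.01 and -3.21 in their KO arrays. Its change was 0.48 ± 0.19 (95% confidence interval 0.07 to 0.89, limma adjusted p 0.121).

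Siglech, a sialic acid-binding receptor, had probes that disagreed. In mean signal, 99.6% of kept probes were dimmer than the brighter probe and 12.3% dimmer than the other. What the brighter probe detects was not tested. The brighter one, which stands for the gene in the test, had 7.02 and 6.84 in numbered vehicle controls, 6.76 and 6.66 in their KO arrays, 5.85 and 6.01 in lettered untreated controls and 5.87 and 5.84 in their KO arrays. Its change was -0.15 ± 0.11 (95% confidence interval -0.38 to 0.09, limma adjusted p 0.417). The dimmer probe had -6.28 and -5.43 in numbered vehicle controls and -5.01 and -4.62 in their KO arrays, then -4.66 and -5.47 in lettered untreated controls and -4.28 and -4.22 in their KO arrays, and the first of these controls was not well above background. KO arrays were above controls within both series. In the lettered series, where all 4 of these arrays were well above background, the change was 0.81 ± 0.46 (95% confidence interval -0.16 to 1.79, limma adjusted p 0.393 over all probes).

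**Figure D2:**
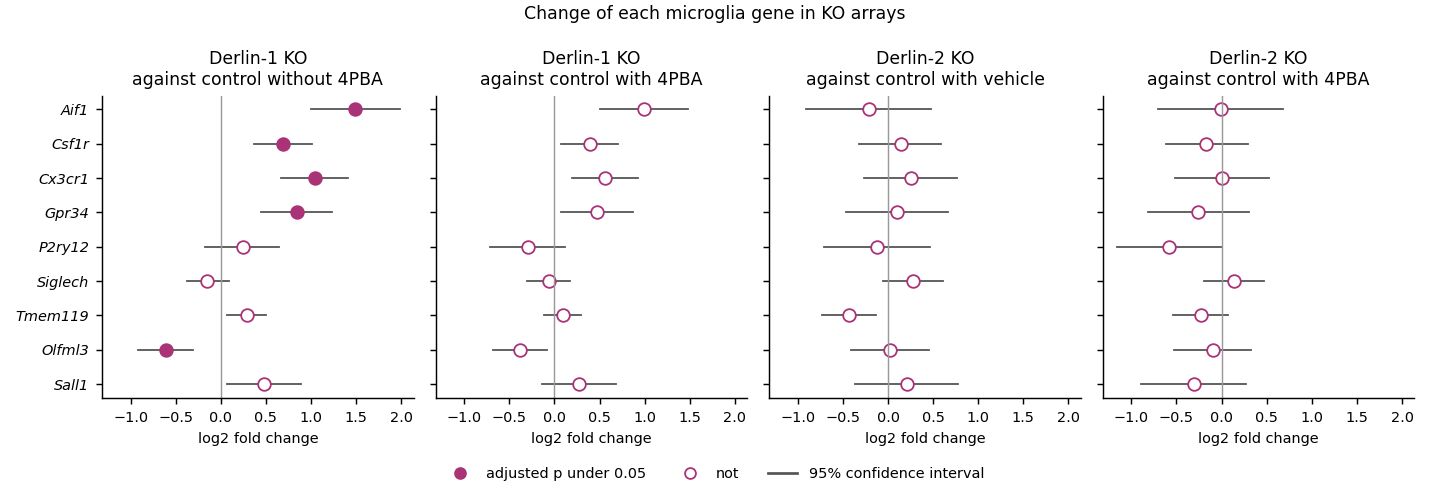
Log2 fold change of each microglia gene (points) with its 95% confidence interval (lines) in the 4 comparisons of KO with control arrays; filled points passed limma's test at an adjusted p under 0.05. In Derlin-1 KO without 4PBA, 5 of 9 points are filled, and in the other 3 comparisons 0 are.

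Over all 8 arrays, KO and control levels did not overlap for 4 of the 9 genes (Aif1, Csf1r, Cx3cr1 and Gpr34, all higher), where 5.31% of all genes were separated in that direction. Within both series taken alone, KO arrays were above controls for 6 of the genes, with Tmem119 and Sall1 added, where 11.5% of all genes were, and below them for Olfml3, where 12.4% were. The KO change differed between lettered and numbered arrays by -0.16 to 0.20 for the 9 genes, with 0 past the threshold and 0 at an unadjusted p under 0.05 in limma (adjusted p 0.986 to 0.998), where 0.0059% of all genes passed. With 2 KO and 2 control arrays of 1 series, 2 genes passed among lettered arrays (Aif1 and Cx3cr1), where 3.54% of all genes passed. Among numbered arrays 0 passed, where 0.0118% of all genes did, and 5 had an unadjusted p under 0.05 in limma, as 13.2% of all genes had. Scaling the arrays to their median, which moves the median of all genes to -0.13, left Aif1 and Cx3cr1 as higher and Olfml3 as lower past the threshold, where 2.15% of all genes were higher and 5.4% lower, and leaving out the array Derlin-1 KO untreated a left Aif1, Cx3cr1 and Gpr34, where 2.07% of all genes were called higher and 1.79% lower.

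Whether the 9 genes moved by the same amount was asked within arrays, by taking the level of each gene relative to Aif1 on the same array, a log2 ratio that does not depend on how arrays are scaled. P2ry12 relative to Aif1 was at -0.24, -0.36, -0.31 and -0.63 in the 4 Derlin-1 controls without 4PBA and at -1.53, -1.30, -2.03 and -1.70 in the KO arrays. The ratio thus fell on every KO array below every control, and its change was -1.25 ± 0.29 (limma adjusted p 0.000176). Tmem119 relative to Aif1 went from -0.45, -0.53, 0.31 and 0.07 to -1.72, -1.49, -1.39 and -0.81, a change of -1.20 ± 0.27 (limma adjusted p 0.000137). Sall1 fell relative to Aif1 by 1.01 on the log2 scale, Csf1r by 0.80 and Gpr34 by 0.66, all past the threshold (limma adjusted p 0.000687, 0.0031 and 0.0159). For Gpr34 this was lost without the array Derlin-1 KO untreated a (limma adjusted p 0.0802) or without Derlin-1 control untreated a (0.12). Cx3cr1 relative to Aif1 had 2.36, 2.36, 2.34 and 1.98 in controls and 1.80, 2.04, 1.53 and 1.87 in KO arrays, a change of -0.45 ± 0.24 that did not pass (95% confidence interval -0.96 to 0.06, limma adjusted p 0.0676), while it did without Derlin-1 KO untreated b (limma adjusted p 0.0497). The choice of reference sets how these numbers read: relative to Aif1, 97% of all genes passed as lower, so a lower ratio is the rule on these arrays, and relative to Csf1r 79.7% did. Relative to Csf1r, Tmem119 had -0.40 ± 0.18 (limma adjusted p 0.0446), past the threshold as most genes were, while P2ry12 had -0.45 ± 0.21 (0.0606) and Sall1 -0.21 ± 0.19 (0.303). Cx3cr1 was higher relative to Csf1r, by 0.35 ± 0.14 (limma adjusted p 0.0279), where 1.1% of all genes were, and Gpr34 had 0.15 ± 0.15 (0.365). The largest changes relative to Aif1 were those of the Olfml3 probe (-2.11, limma adjusted p 1.34e-05) and the brighter Siglech probe (-1.64, 1.48e-05). What these 2 probes detect was not tested. A ratio of this kind shows unequal change and does not show that either gene kept its level.

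**Figure D3:**
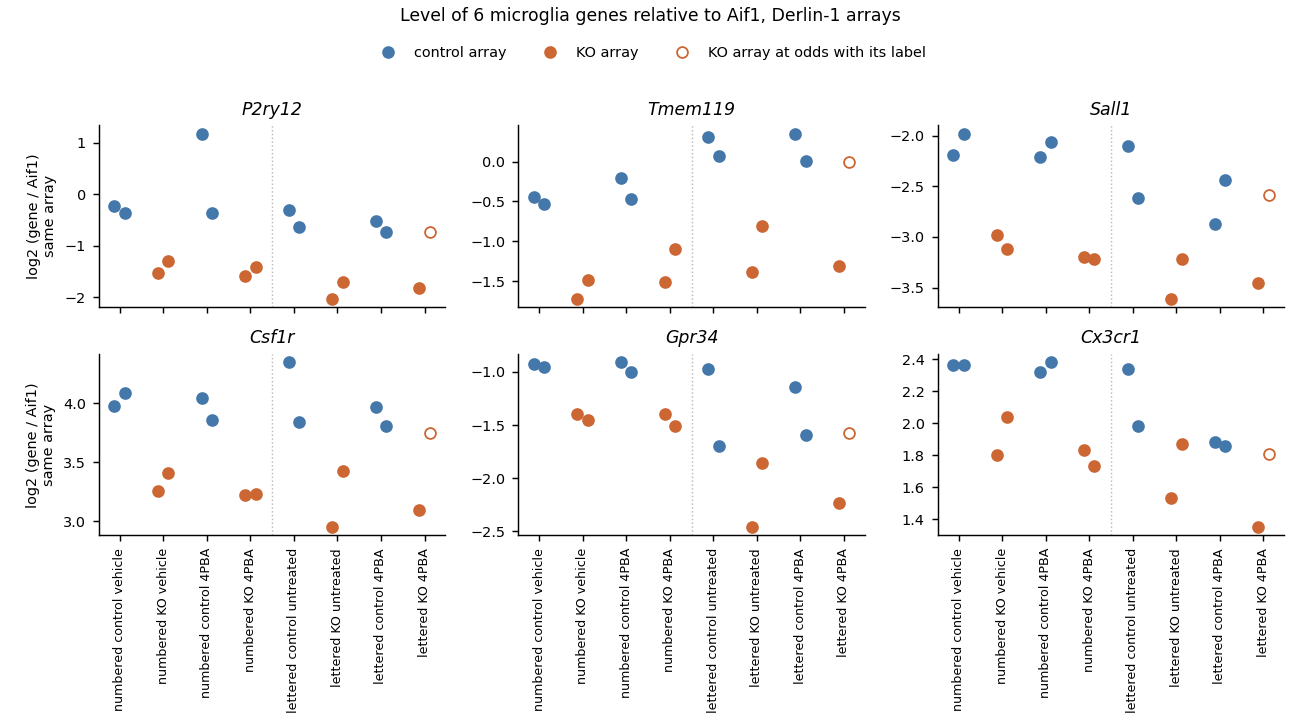
Log2 level of 6 microglia genes relative to Aif1 on the same array, for the 16 Derlin-1 arrays by group (y axes differ); the open point is lettered KO array b with 4PBA. Without 4PBA, KO arrays lie below every control of their series in all 6 panels, and the open point lies near the 4PBA controls of its slide.

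The genes also differed in how they varied together. With levels centred on the mean of each slide, the Pearson correlation over the 24 arrays was 0.87 to 0.94 among Aif1, Csf1r, Cx3cr1 and Gpr34, which share arrays and the same KO difference. Sall1 followed these 4 less closely (0.62 to 0.72) and Tmem119 less still (0.39 to 0.58), and P2ry12 had 0.06 to 0.13 with them. For P2ry12 these values rest on 1 array, Derlin-1 control 4PBA 1, which is high for this gene alone among the 5: without it, in a check added after the data were seen, P2ry12 had 0.53 to 0.66 with the same 4 genes over 23 arrays. Olfml3 ran against them, from -0.92 with Aif1 to -0.79 with Gpr34. These correlations describe the arrays at hand and carry no test.

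Among 14257 other genes well above background on all arrays, those with levels most like Aif1 were Cd52 (r = 0.98), Ctss (0.98) and Mpeg1 (0.97), the last a pore-forming protein of macrophages. Cx3cr1 was most like Irf8 (0.98), a transcription factor of the microglial lineage, Irgm1 (0.97) and Mpeg1 (0.97), and Csf1r most like Unc93b1 (0.95), Mpeg1 (0.94) and Hcls1 (0.94). Blnk (0.95) and Rgs10 (0.92) were among the 3 genes most like Gpr34. Sall1 was most like Vgf (0.76), Rac2 (0.76) and Gjc3 (0.75), and Tmem119 most like Extl1 (0.84), Cyp7b1 (0.82) and Serpine2 (0.81). P2ry12 had 4933431E20Rik (0.86), A730063M14Rik (0.86) and Mtmr10 (0.85) as its nearest genes, which fell to 0.61, 0.48 and 0.43 without Derlin-1 control 4PBA 1. The brighter Siglech probe was most like Hccs (0.97), Slc10a1 (0.93) and Rn4.5s (0.93), and the genes nearest to Olfml3 are given above.

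The paired probes of 4 genes were compared in the same way. Both Cx3cr1 probes correlated at 0.86 over the 24 arrays and both Gpr34 probes at 0.86. The Csf1r probes correlated at 0.06, and only the brighter followed Aif1 (0.89 against 0.10). The Siglech probes correlated at -0.62, with -0.42 against Aif1 for the brighter and 0.74 for the dimmer. Which transcripts or other RNA the brighter Siglech probe, the dimmer Csf1r probe and the 1 Olfml3 probe detect was not tested.

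**Figure D4:**
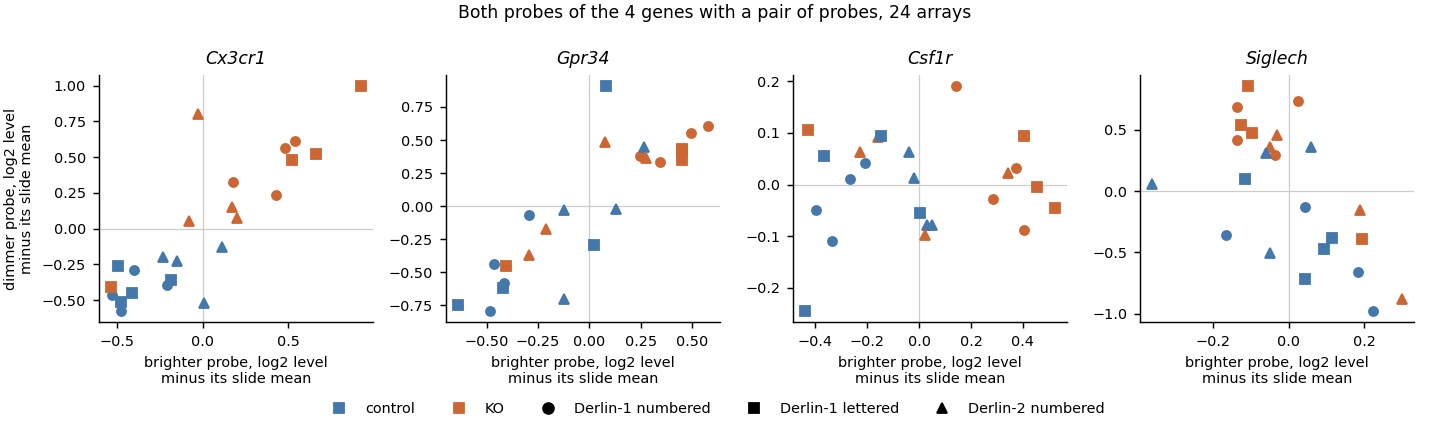
Level of the dimmer against the brighter probe of each gene with a pair of probes, log2 and centred on the mean of each slide, on 24 arrays (colour for genotype, symbol for slide; axes differ). The points rise together for Cx3cr1 and Gpr34 (r = 0.86 each), scatter for Csf1r (0.06) and fall for Siglech (-0.62).

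Other genes of the pathway and of the cells were read from lists. In Derlin-1 KO arrays without 4PBA, 5.26% of all genes were higher and 5.37% lower past the threshold. Among 13 measured ligands, receptors and transcription factors of the homeostatic program, 4 were higher in Derlin-1 KO arrays without 4PBA, among them Irf8 (log2 change 1.22) and Runx1 (0.91), transcription factors of macrophages, and the receptor subunit Tgfbr2 (0.38). The ligand Tgfb3 was lower (-0.43), and the median of the list was 0.27. Of 18 further microglia and myeloid genes, 15 were higher, led by the signalling adaptor Tyrobp (1.5), Cd53 (1.49) and the complement genes C1qb (1.44), C1qc (1.43) and C1qa (1.43), and 1, the fructose transporter Slc2a5 (-0.64), was lower. The median of these 18 was 1.19. Of 16 genes linked to microglial activation, 12 were higher and 0 lower, with a median of 1.25, and the largest changes were in Cst7 (4.86), the integrin Itgax (4.54), the chemokines Ccl3 (3.92) and Ccl4 (2.49), Lpl (2.0) and the receptor Trem2 (1.77). Set beside these medians, the median of 0.48 of the 9 genes was lower, which is a description and not a test. The 9 include the Olfml3 probe and the brighter Siglech probe, which both had a negative change and so lower this median. These probes correlated with Aif1 at -0.92 and -0.42, and what they detect was not tested. With 4PBA, 0 genes of these 3 lists passed with all arrays, and 4 of 13, 15 of 18 and 9 of 16 had an unadjusted p under 0.05 in limma, as 12.8% of all genes had. That count of 0 rests on lettered KO array b with 4PBA: without it, 2 of 13 were higher and 1 lower, 14 of 18 were higher and 9 of 16 were higher past limma's threshold, where 3.51% of all genes were called higher and 2.67% lower.

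**Figure D5:**
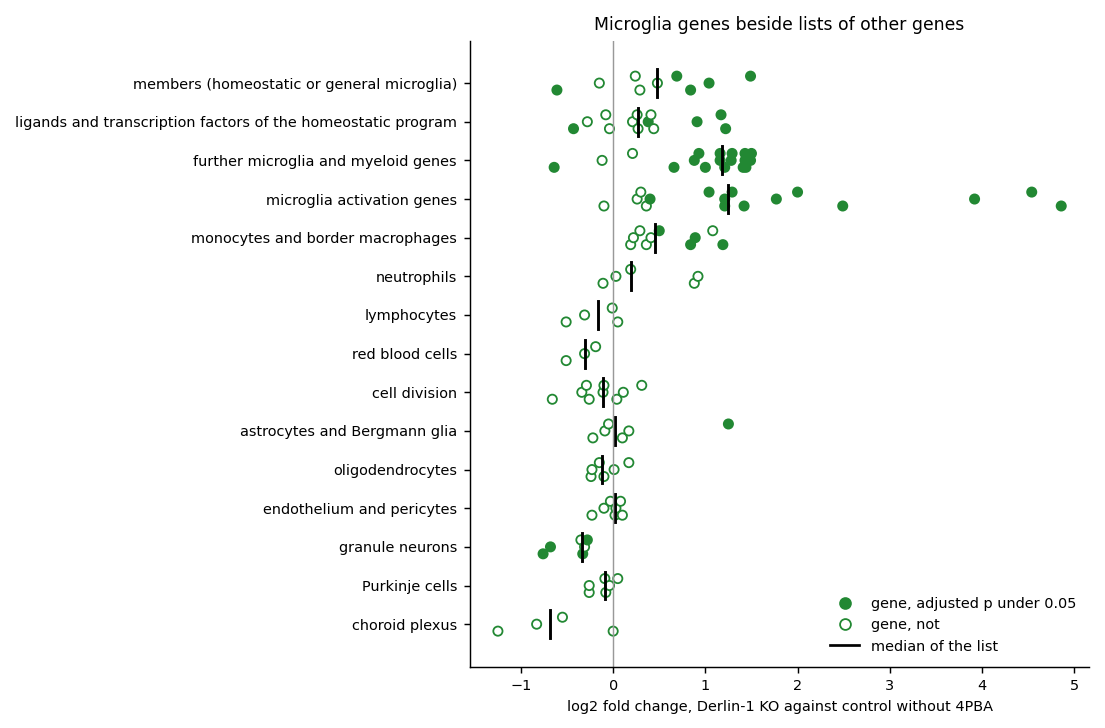
Log2 fold change of each measured gene (points) in 15 lists, Derlin-1 KO against control without 4PBA; filled points passed limma's test at an adjusted p under 0.05 and black lines are list medians. The medians of the further microglia genes (1.19) and of the activation genes (1.25) lie right of that of the 9 genes (0.48), and the granule neuron genes lie left of 0. The median of the 9 genes includes the Olfml3 probe and the brighter Siglech probe, which lie left of 0.

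Genes of other cells moved beside the set, in the same comparison where 5.26% of all genes were higher and 5.37% lower past the threshold. Of 10 markers of monocytes and border macrophages, which also express Csf1r and Aif1, 4 were higher in the Derlin-1 KO arrays without 4PBA, Cd163 (1.19), F13a1 (0.89), Lyve1 (0.84) and Clec12a (0.50), with a list median of 0.45. Their summed level, as multiples of the 75th percentile, was 9.60 to 14.0 in the 4 controls and 11.2 to 17.2 in the 4 KO arrays, and all 10 were detected on every one of these arrays. Such a sum weighs probes by their brightness and compares arrays only. Without the brightest probe, that of Ly6c2 (0.22, not past the threshold), the other 9 summed to 1.36 to 1.69 in controls and 1.68 to 2.54 in KO arrays. Their part in the levels of Aif1, Csf1r and Cx3cr1 was not tested. Markers of neutrophils (5 measured), lymphocytes (4), dividing cells (9) and red blood cells (3) had 0 called by limma, each also with 0 at an unadjusted p under 0.05. The same held for endothelium and pericytes (7 measured) and choroid plexus (4), while oligodendrocyte (6) and Purkinje cell markers (6) had 0 called with 1 and 2 at an unadjusted p under 0.05. Of all genes, 26.7% had such an unadjusted p in limma. Of 6 granule neuron markers, 4 were lower past the threshold (Gabra6 -0.76, Neurod1 -0.68, Grin2c -0.33 and Zic1 -0.28), with a summed level of 276 to 399 in controls and 218 to 293 in KO arrays, and of 6 astrocyte and Bergmann glia genes 1, Gfap, was higher (1.25) and 0 were lower. How far a smaller share of granule neuron RNA accounts for higher microglia levels was not tested.

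With 4PBA in both genotypes, 0 of the 9 genes passed the test in the Derlin-1 line, where 0.0472% of all genes did, and 5 had an unadjusted p under 0.05 in limma, as 12.8% of all genes had. Aif1 had -1.26, -1.0, -1.09 and -1.14 in the 4 controls with 4PBA and 0.19, 0.04, 0.37 and -1.15 in the KO arrays, the last being lettered KO array b with 4PBA. The 3 other KO arrays were more than 1 log2 unit above all controls, and that array was lower than 3 of the 4 controls. The change with all arrays was 0.99 ± 0.23 (limma adjusted p 0.121). Cx3cr1 had 1.06, 1.38, 0.79 and 0.71 in controls and 2.02, 1.77, 1.73 and 0.67 in KO arrays, Csf1r 2.79, 2.86, 2.88 and 2.66 against 3.41, 3.27, 3.48 and 2.60, and Gpr34 -2.17, -2.0, -2.23 and -2.73 against -1.21, -1.46, -1.86 and -2.72. In each of these genes the fourth KO array alone lay among or below the controls. Without it, the same 5 genes passed as in the comparison without 4PBA, in the same directions, where 3.51% of all genes were called higher and 2.67% lower: Aif1 at 1.37 (limma adjusted p 4.12e-05), Cx3cr1 at 0.83 (0.00102), Csf1r at 0.61 (0.00528), Gpr34 at 0.69 (0.0285) and Olfml3 at -0.58 (0.00623).

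P2ry12 with 4PBA was set by another array. Its levels were -0.09, -1.36, -1.62 and -1.87 in the Derlin-1 controls with 4PBA and -1.39, -1.38, -1.45 and -1.89 in the KO arrays, so that Derlin-1 control 4PBA 1 stood more than 1 log2 unit above every other Derlin-1 array. The change was -0.29 ± 0.19 (limma adjusted p 0.575), and it ranged from -0.61 to 0.03 as single arrays were left out. Tmem119 (0.09 ± 0.10), Sall1 (0.27 ± 0.19) and Siglech (-0.06 ± 0.11, and 0.05 with quantile normalization) also did not pass. On the dimmer Siglech probe, the numbered controls with 4PBA (-5.66 and -5.96) were not well above background and the KO arrays (-4.57 and -4.89) were, a difference of at least 1.68-fold against the dimmest signal counted as above background on those arrays.

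The ratios to Aif1 were also taken with 4PBA, where 92.9% of all genes passed as lower. P2ry12 relative to Aif1 was at 1.17, -0.36, -0.53 and -0.73 in the Derlin-1 controls and at -1.58, -1.42, -1.82 and -0.74 in the KO arrays. The high control described above is the highest ratio, and lettered KO array b lay next to the controls of its slide. The change was -1.28 ± 0.29 (limma adjusted p 0.00231), and -0.90 ± 0.30 (0.0135) without that control. Tmem119 changed by -0.90 (limma adjusted p 0.00358), Sall1 by -0.72 (0.0122) and Csf1r by -0.60 (0.0248) relative to Aif1. For Csf1r this was lost without numbered control 1 (limma adjusted p 0.0782), lettered control a (0.075), numbered KO array 1 (0.0613) or numbered KO array 2 (0.0585), all with 4PBA, and with normexp background correction (0.06). For Sall1 it was lost without lettered control b with 4PBA (limma adjusted p 0.0622). Tmem119 had -0.57 (limma adjusted p 0.0081) without lettered KO array a, where only array b is left in its group, and -1.23 without array b. Gpr34 (-0.52, limma adjusted p 0.0543) and Cx3cr1 (-0.43, 0.0856) did not pass, and both did without lettered KO array b (0.00282 and 0.00166). Gpr34 also passed without lettered control b (limma adjusted p 0.0495) and with normexp (0.0496). Relative to Aif1, the Olfml3 probe changed by -1.37 (limma adjusted p 0.00231) and the brighter Siglech probe by -1.05 (0.00248). Relative to Csf1r, P2ry12 had -0.68 (limma adjusted p 0.0671) and Tmem119 -0.30 (0.152), neither past the threshold, where 0.189% of all genes were lower.

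Compared within genotype, 4PBA changed 0 of the 9 genes past the threshold. In Derlin-1 controls the changes lay between -0.05 and 0.40 (limma adjusted p 1 for each, 0 with an unadjusted p under 0.05), where 0.0295% of all genes passed. Without Derlin-1 control 4PBA 2, P2ry12 passed as higher, as 0.136% of all genes did, and the numbered array that remained is the high one described above. In Derlin-1 KO arrays they lay between -0.50 and 0.20, with 1 unadjusted p under 0.05 (Cx3cr1, -0.50 ± 0.17, limma adjusted p 0.722), as 6.66% of all genes had, where 0.0354% of all genes passed. Here both lettered arrays decide the value. Without array b, at odds with its label, the change of Cx3cr1 was -0.24 and that of Aif1 0.00, whereas without array a, which leaves array b alone in that group and assumes that it varies like the others, Cx3cr1 (-0.77), Aif1 (-0.76) and Csf1r (-0.53) passed as lower, as 0.856% of all genes did. The difference between the KO change with and without 4PBA lay between -0.53 and 0.24, with 0 of 9 genes past the threshold and 0 with an unadjusted p under 0.05 in limma (adjusted p 0.999 for each), where 0.0118% of all genes passed. For Aif1 it was -0.50 with a 95% confidence interval of -1.19 to 0.19, and the lettered KO arrays with 4PBA move it, to -0.12 without array b and to -0.88 without array a. For Cx3cr1 (-0.48) the same omissions gave -0.21 and -0.74, and for P2ry12 (-0.53) leaving out numbered control 1 or 2 with 4PBA gave -0.21 or -0.84.

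In the Derlin-2 line with vehicle, 0 of the 9 genes passed and 1 had an unadjusted p under 0.05 in limma, where 0.118% of all genes passed and 8% had such a p. Aif1 had -1.23 and -1.14 in controls and -1.31 and -1.48 in KO arrays, a change of -0.21 ± 0.32 (95% confidence interval -0.91 to 0.48). Csf1r had 2.73 and 2.75 against 2.72 and 3.04 (0.14 ± 0.21), Cx3cr1 0.95 and 1.11 against 1.30 and 1.27 (0.25 ± 0.24), and Gpr34 -2.45 and -2.06 against -2.05 and -2.25 (0.10 ± 0.26). With 2 arrays against 2, KO arrays lay above both controls for Cx3cr1 and the brighter Siglech probe. They lay below both controls for Aif1, P2ry12 and Tmem119. The share of all genes separated in this way was not counted, so this is a description only. Tmem119 had the lowest unadjusted p, with -1.19 and -1.28 in controls and -1.49 and -1.84 in KO arrays, and its change of -0.43 ± 0.14 missed the threshold (limma adjusted p 0.443). The first KO value of each pair comes from the array at odds with its label, and without it the count of these genes past the threshold was also 0 in limma, where 0.307% of all genes were called higher and 0.177% lower.

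The remaining members in the Derlin-2 line with vehicle had changes of -0.12 (P2ry12), 0.21 (Sall1), 0.28 (Siglech) and 0.02 (Olfml3). With 4PBA, Aif1 had -1.40 and -1.39 in Derlin-2 controls and -1.34 and -1.48 in KO arrays, and P2ry12 had -1.01 and -1.08 against -1.60 and -1.65. P2ry12 was thus lower on both KO arrays, as were Tmem119 and the brighter probes of Csf1r and Gpr34, while the dimmer Cx3cr1 probe was higher. The share of all genes so separated was not counted. The P2ry12 change of -0.58 ± 0.27 did not pass (limma adjusted p 1). The 9 changes with 4PBA lay between -0.58 and 0.14, with 0 past the threshold and 0 with an unadjusted p under 0.05 in limma, where 0.136% of all genes passed. The 4PBA comparisons within Derlin-2 controls (changes from -0.24 to 0.45) and within Derlin-2 KO arrays (-0.43 to 0.07) also called 0 of the 9 genes, with 0 at an unadjusted p under 0.05 in limma, where 0.13% and 0.136% of all genes passed. The changes within KO arrays use Derlin-2 vehicle KO array 1, and without both arrays at odds with their labels 4 of them turned direction, Aif1 to 0.07, Sall1 to 0.12, Siglech to -0.06 and Tmem119 to 0.14, while 0 of the 9 passed, where 0.148% of all genes were called higher and 0.39% lower.

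The KO changes of both lines without 4PBA were then set against each other in 1 contrast. The Derlin-1 change exceeded the Derlin-2 change by 1.70 ± 0.40 for Aif1 (limma adjusted p 0.112), by 0.72 ± 0.17 for Tmem119 (0.119), by 0.79 ± 0.30 for Cx3cr1 (0.251) and by 0.74 ± 0.32 for Gpr34 (0.317). It was lower by the same contrast for Olfml3 (-0.63 ± 0.24, limma adjusted p 0.258) and for the brighter Siglech probe (-0.42 ± 0.19, 0.329; 0.09 with the mean of both probes). With all arrays 0 of 9 genes passed, and these 6, 4 with a higher and 2 with a lower Derlin-1 change, had an unadjusted p under 0.05 in limma, where 0.065% of all genes passed and 14% had such a p. Leaving out both arrays at odds with their labels, Aif1 (1.79, limma adjusted p 0.00351) and Tmem119 (0.89, 0.0292) passed, where 0.833% of all genes were called higher and 0.815% lower. The lines also lie on different slides, and the contrast compares differences taken within slides.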

How the data were processed

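Total RNA of mouse cerebellum was labelled with Cy3 and hybridised to 24 one-colour Agilent arrays; spots were read with Agilent Feature Extraction 10.7.1.1, per the submitters' processing notes. The deposited intensity values are its background-subtracted processed signals, and the authors' deposited series table holds the same values (largest log2 difference 1.74e-06). From these, log2 levels were taken and each array's 75th percentile subtracted. Spots flagged as outliers were left out, spots of a probe averaged, and probes kept if well above background on both arrays of at least 1 group (38115 probes). Accessions of 32994 probes matched RefSeq symbols, and the brightest probe stands for a gene. limma 3.58.1 in R 4.3.3 fitted 12 group means (12 residual degrees of freedom), two-sided, with Benjamini-Hochberg adjustment over all genes and a threshold of 0.05. The number of arrays limits the precision. The fit was tested on simulated data.

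The 9 genes are named with every probe; from each other list at most 6 genes that passed, with the largest changes, are named; and up to 3 genes most like each member are given. Some genes these rules select are not reported here. The members and lists were chosen with earlier results of these data known. Alternatives covered scaling, background correction, filters, probe choice, arrays left out, slide and replicate blocks. The background alternative used median signals, since mean signals were not used here.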

Additional observations from a re-analysis of the deposited data

How the results depend on the processing

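In the Derlin-1 line without 4PBA, 11 of 15 alternatives kept the count of called genes within 1.5 times the 5 called. It was 3 with median scaling, 3 with only the arrays of the line, 2 in the lettered series alone and 0 in the numbered series alone, and 3 to 5 as single arrays were left out. With 4PBA it was 5 without both arrays at odds with their labels and 0 to 5 with single arrays left out. Single arrays gave 0 to 3 for 4PBA in Derlin-1 KO and 0 to 1 in Derlin-1 controls. The difference between the lines called 2 without both arrays. In every other comparison all alternatives called 0.

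Among values that turned direction, Cx3cr1 relative to Csf1r, noted last, was the only one past the threshold in the setting that turned it, and Gpr34 relative to Aif1 without 4PBA the only one past it as reported; a value that rounds to 0.00 was not counted as turned, a rule set after seeing the data. Taking the mean of a gene's probes turned Siglech in Derlin-1 KO (0.39 without and 0.40 with 4PBA), in the difference between lines (0.09), in Derlin-2 KO with 4PBA (-0.20), and under 4PBA in Derlin-2 KO (-0.12) and Derlin-1 controls (-0.01); it also turned 4PBA changes of Csf1r (0.04 in Derlin-1 and 0.02 in Derlin-2 controls) and Cx3cr1 (0.01 in Derlin-1 controls, 0.04 in Derlin-2 KO). The numbered series alone turned 4PBA changes in Derlin-1 controls for Cx3cr1 (0.07), Sall1 (0.03) and Siglech (-0.13), in KO for Olfml3 (-0.05), and the interaction for Tmem119 (0.01). The lettered series alone turned the KO change with 4PBA for P2ry12 (0.08) and Tmem119 (-0.11). Median scaling turned 4PBA changes of Siglech (-0.07 in Derlin-1 controls, -0.17 in Derlin-2 KO) and Cx3cr1 (-0.13 in Derlin-2 controls), the last also -0.02 in the authors' table. Quantile normalization turned Siglech in Derlin-1 KO with 4PBA (0.05) and Olfml3 under 4PBA in Derlin-2 controls (0.01) and in Derlin-2 KO with vehicle (-0.01). Normexp turned Olfml3 in Derlin-2 KO with vehicle (-0.02) and 4PBA changes in Derlin-2 KO of Aif1 (0.03) and Tmem119 (0.04). Leaving out both arrays at odds with their labels turned 4PBA changes in Derlin-2 KO of Aif1 (0.07), Sall1 (0.12), Siglech (-0.06) and Tmem119 (0.14). With Csf1r as reference, Cx3cr1 had 0.35 without and 0.17 with 4PBA and Gpr34 0.15 and 0.08. Apart from that reference, whose construction sets the sign, the cause was not tested.

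Leaving out single arrays gave ranges across 0 under 4PBA in Derlin-1 controls for Csf1r (-0.13 to 0.09), Cx3cr1 (-0.11 to 0.05), Gpr34 (-0.06 to 0.27), Olfml3 (-0.09 to 0.02), Sall1 (-0.16 to 0.06) and Siglech (-0.08 to 0.10), in Derlin-2 controls for Cx3cr1 (-0.16 to 0.18), Gpr34 (-0.27 to 0.12) and Olfml3 (-0.10 to 0.02), and in Derlin-2 KO for Aif1 (-0.10 to 0.07), Sall1 (-0.43 to 0.30), Siglech (-0.10 to 0.23) and Tmem119 (-0.22 to 0.14). The same held in Derlin-1 KO with 4PBA for P2ry12 (-0.61 to 0.03), Siglech (-0.15 to 0.03) and Tmem119 (-0.01 to 0.19), in Derlin-2 KO with vehicle for Csf1r (-0.02 to 0.30), Gpr34 (-0.10 to 0.30) and Olfml3 (-0.05 to 0.08), under 4PBA in Derlin-1 KO for Tmem119 (-0.07 to 0.07), and in Derlin-2 KO with 4PBA for Aif1 (-0.08 to 0.06), Cx3cr1 (-0.16 to 0.17), Olfml3 (-0.22 to 0.02), Sall1 (-0.68 to 0.06) and Siglech (-0.03 to 0.31).

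With the replicate block, 5 of the 9 genes were called in Derlin-1 KO without 4PBA, as without it, and 0 in each other comparison, while over all genes the count went from 1800 to 2188. Same-numbered arrays correlated in their deviations at -0.24 to 0.51 over 18 pairs of groups, 12 of them over 0.1. These values do not settle whether the numbers pair the samples, which the labels do not say, and the main fit uses no pairs.

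With 2 arrays in a group the intervals are wide: the median SE of a log2 change over all genes was 0.11 in the Derlin-1 and 0.15 in the Derlin-2 comparisons. The dimmer probes of Gpr34 and Siglech were not well above background on 4 and 9 of the 24 arrays, where their levels are bounds.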
